A study of Mus musculus with 6 samples.

Results

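The genes examined here are 9 genes that T cells use to stay naïve and quiescent and to home to lymph nodes, namely *Tcf7*, *Lef1*, *Klf2*, *Klf3*, *S1pr1*, *Bach2*, *Satb1*, *Foxp1* and *Id3*. They were chosen by name with earlier results of these data known, many of them as targets of the transcription factor FOXO1, and they are 9 of the 56748 genes in the count table. All 9 were found by symbol and all 9 passed the filter on low counts, which left 14936 genes for testing. RNA-seq was available for 6 cultures of murine CD4 cells, the helper T cells. Naïve CD4 cells were taken from wild-type C57BL/6J mice aged 6 to 10 weeks, with splenocytes given as the source in the labels and spleen and lymph nodes in the methods, by a kit that removes other cells (negative selection), and were activated through CD3 and CD28 under Treg polarizing conditions, that is with IL-2, TGF-β and antibodies against IFN-γ and IL-4. All cultures received an antisense oligonucleotide (ASO) at 10 μM for 72 hr, which was a scrambled ASO in 3 and an ASO against *Pgam* in the other 3. Cells were not sorted before RNA extraction, so each library is the sum of all cells left in the culture. Total counts were 17588755, 18032805 and 16231127 in scrambled ASO replicates 1, 2 and 3, and 16589933, 15860476 and 16803881 in *Pgam* ASO replicates 1, 2 and 3.

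Naïve T cells are kept at rest by transcription factors of the TCF, KLF and FOX families, and they travel between blood and lymph nodes with the help of CCR7 and the S1P receptor. FOXO1 activates several of these genes, and signalling through PI3K and AKT after activation moves FOXO1 out of the nucleus. Activated T cells are known to lower many of these genes as they divide, and cells that return to rest regain part of them.

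The targeted genes were examined before the members. *Pgam1* stood at 600, 478 and 707 CPM (counts scaled to library size with TMM factors) in scrambled ASO replicates 1, 2 and 3, and at 658, 661 and 707 CPM in *Pgam* ASO replicates 1, 2 and 3. *Pgam2* stood at 5.23, 6.75 and 2.85 CPM and at 2.98, 2.69 and 2.60 CPM in the same order. Values of the groups overlapped for both genes. Neither reached an adjusted p under 0.05 with edgeR, by quasi-likelihood F test and the method of Benjamini and Hochberg (log2 fold change 0.18 ± 0.13 (SE), adjusted p = 0.331 for *Pgam1*, and -0.84 ± 0.31, adjusted p = 0.0854 for *Pgam2*). Without scrambled ASO replicate 3 the edgeR adjusted p of *Pgam2* was 0.0144, at a log2 value of -1.11, and with every gene of at least 1 count it was 0.0292, in a range from 0.0144 to 0.286 over 15 alternatives. The RNA of the target thus does not check the labels. The labels read Scramble and ASO, and that the ASO was against *Pgam* is taken from the paper. Libraries with the label ASO are called labelled *Pgam* ASO below, and those with the label Scramble are called labelled scrambled ASO.

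The question put to the 9 genes was whether their RNA differed between the libraries labelled *Pgam* ASO and those labelled scrambled ASO. *Tcf7*, *S1pr1*, *Bach2* and *Foxp1* were lower in the libraries labelled *Pgam* ASO at an adjusted p under 0.05, which is called below. These were 4 of 9 members called in either direction, where 17.2% of all tested genes were called, and 4 of 9 called lower, where 9.15% of all tested genes were. No member was called higher, against 8.03% of all tested genes. DESeq2 and limma-voom also called 0 members higher, and 0 had a higher value at an unadjusted p under 0.05 in any of these 3 tools. The groups did not overlap for 6 members, all lower in the libraries labelled *Pgam* ASO, which were the 4 called genes with *Klf2* and *Klf3*. Over all tested genes, 19.8% had such lower values without overlap. The median log2 fold change was -1.01 over the members and -0.01 over all tested genes. A lower level in bulk RNA can mean fewer cells that hold the RNA or less RNA in each cell, which cannot be told apart here. The 3 cultures of a group are described as biological replicates, but no source used here says that they came from separate animals, so p-values measure only the spread between these libraries.

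**Figure D1:**
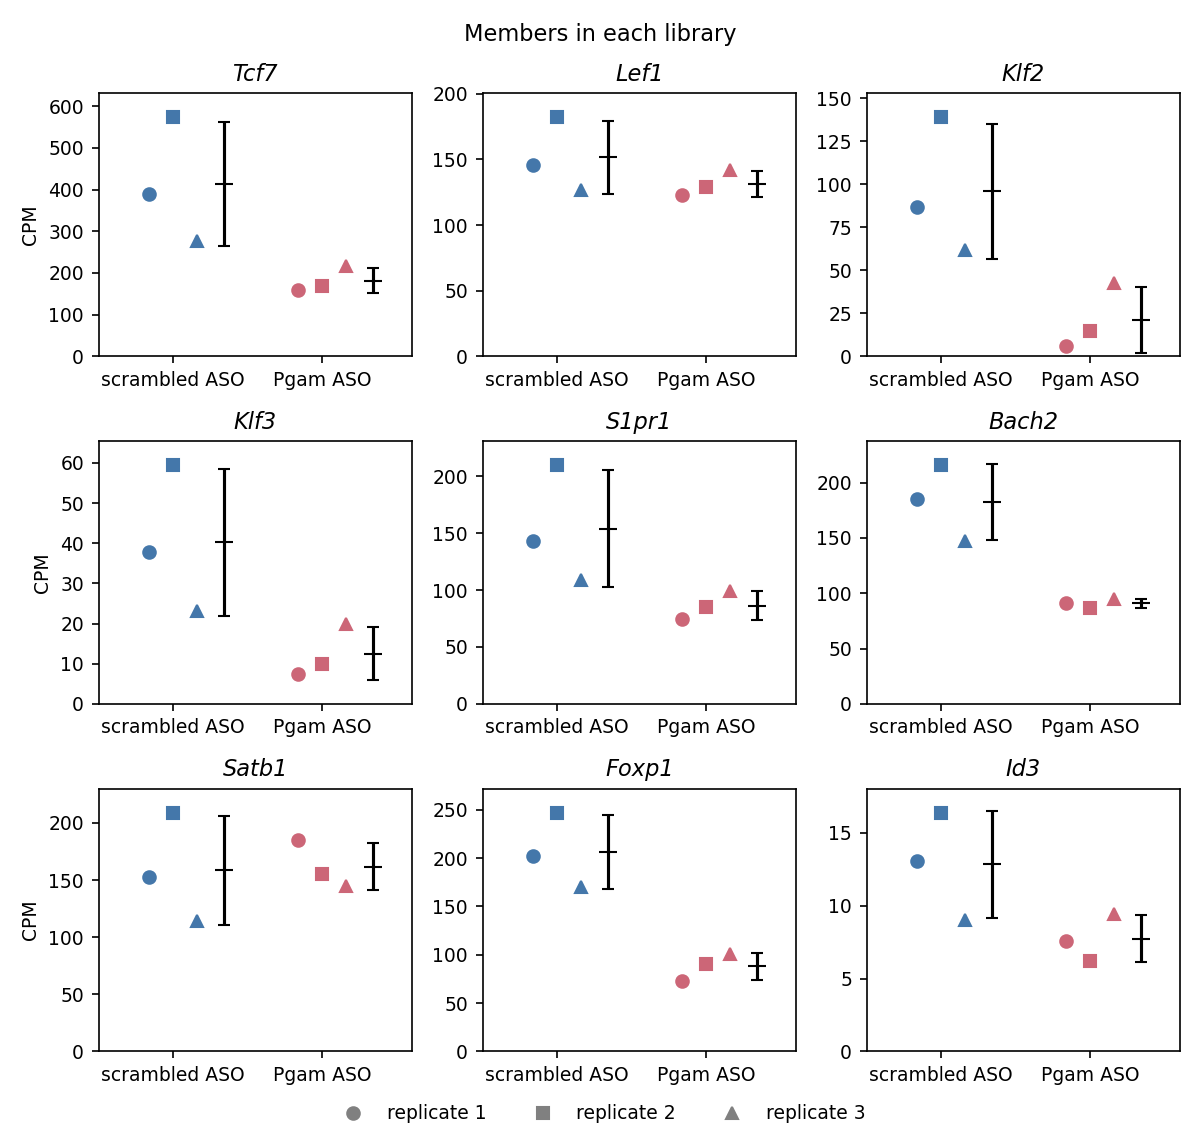
CPM of each member (vertical axis, from 0) in the 3 libraries labelled scrambled ASO and the 3 labelled *Pgam* ASO, with the mean ± SD beside each group and the replicate number as symbol. Scrambled ASO replicate 2 is the highest and replicate 3 the lowest of its group in 9 of 9 panels.

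*Tcf7* encodes TCF-1, an HMG-box factor that works with β-catenin and Groucho proteins and marks naïve and stem-like T cells (ENSMUSG00000000782, minus strand, GRCm38 chr11:52252371-52283014). It stood at 390, 573 and 277 CPM in scrambled ASO replicates 1, 2 and 3 and at 160, 168 and 217 CPM in *Pgam* ASO replicates 1, 2 and 3. The lowest library labelled scrambled ASO, replicate 3, lay above the highest one labelled *Pgam* ASO, also a replicate 3. Means were 413 ± 149 and 181 ± 30.9 CPM (SD, n = 3), and *Tcf7* fell by 1.19 on the log2 scale (SE 0.27, 95% interval -1.82 to -0.55, edgeR adjusted p = 0.0298). This call was lost without scrambled ASO replicate 1 (edgeR adjusted p = 0.0775), *Pgam* ASO replicate 1 (0.0992) or *Pgam* ASO replicate 2 (0.11), when every gene with at least 1 count was tested (0.12), and with replicate number as a block (0.0574). Over the 15 alternatives the adjusted p of *Tcf7* ran from 0.00332 to 0.12 and its log2 fold change from -1.41 to -0.88.

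*Lef1* encodes the closest relative of TCF-1 in T cells, which binds the same DNA motif (ENSMUSG00000027985, plus strand, chr3:131110471-131224356). Its values were 146, 182 and 127 CPM in the libraries labelled scrambled ASO and 123, 129 and 142 CPM in those labelled *Pgam* ASO, each in the order of replicates 1, 2 and 3. The groups overlapped, since *Pgam* ASO replicates 2 and 3 lay above scrambled ASO replicate 3. The log2 fold change was -0.21 ± 0.13 (SE) with a 95% interval from -0.49 to 0.07, and edgeR's adjusted p was 0.266. *Lef1* was called in 0 of 15 alternatives, where the adjusted p ran from 0.0686 to 0.754. Its log2 fold change was -0.06 without scrambled ASO replicate 2 and -0.32 without scrambled ASO replicate 3. A stretch of 31 bases is what Kallisto matches by default, and 14.6% of the 31-base stretches of *Lef1* transcripts also occur in other genes, mostly in *Gm43352*, an antisense transcript at its start. This is the largest shared part among the 9, and how it bears on the count was not tested.

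The counts of *Tcf7* and *Lef1* were also set against each other within each library, a ratio that no scaling between libraries can change. There were 2.67, 3.15 and 2.18 *Tcf7* counts for each *Lef1* count in scrambled ASO replicates 1, 2 and 3, and 1.3, 1.3 and 1.52 in *Pgam* ASO replicates 1, 2 and 3. Every ratio in the libraries labelled *Pgam* ASO was below every ratio in those labelled scrambled ASO. The log2 ratio was 1.40 ± 0.27 (SD, n = 3) against 0.46 ± 0.13 (SD, n = 3), a difference of -0.94, with an exact two-sided permutation p of 0.1, the smallest that 3 against 3 libraries allow. This ratio was chosen after the values were seen.

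*Klf2* encodes a zinc finger factor that holds T cells in quiescence and activates *S1pr1* (ENSMUSG00000055148, plus strand, chr8:72319033-72321656). It stood at 86.9, 139 and 61.8 CPM in scrambled ASO replicates 1, 2 and 3 and at 6.03, 14.8 and 42.9 CPM in *Pgam* ASO replicates 1, 2 and 3. The groups did not overlap, but the libraries labelled *Pgam* ASO differed among themselves by 7.12-fold, from 97 counts in replicate 1 to 725 in replicate 3. *Klf2* had the largest difference of the 9 members, a log2 fold change of -2.17 ± 0.71 (SE), with a 95% interval from -3.92 to -0.42. With this spread it was not called (edgeR adjusted p = 0.0888). It was called without *Pgam* ASO replicate 3, where the log2 fold change was -3.20 and the edgeR adjusted p 0.0148. DESeq2 gave an adjusted p of 0.0436 and limma-voom of 0.0174, in a range from 0.0148 to 0.326 over the 15 alternatives.

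*Klf3* encodes a repressor of the same family (ENSMUSG00000029178, plus strand, chr5:64803388-64832901). Its values were 37.9, 59.5 and 23.2 CPM in scrambled ASO replicates 1, 2 and 3 and 7.51, 9.88 and 20.0 CPM in *Pgam* ASO replicates 1, 2 and 3. No value was shared between the groups, although both replicates 3 came close to each other. The log2 fold change was -1.69 ± 0.49 (SE, 95% interval -2.90 to -0.48, edgeR adjusted p = 0.0661), which did not pass. *Klf3* was called without scrambled ASO replicate 3 (edgeR adjusted p = 0.044), without *Pgam* ASO replicate 3 (0.0228), with at least 10 counts in every library (0.0414), with limma-voom (0.0254) and with DESeq2 (0.0182), in a range from 0.0182 to 0.209. Of the 31-base stretches of *Klf3*, 4.53% occur in other genes, mostly in *Gm20033*, which lies antisense to its start. Counts of *Klf2* for each count of *Klf3* were 2.29, 2.34 and 2.66 in scrambled ASO replicates 1, 2 and 3 and 0.802, 1.5 and 2.14 in *Pgam* ASO replicates 1, 2 and 3. The difference in this log2 ratio, also chosen after its values were seen, was -0.82, with an exact permutation p of 0.1, again the smallest possible. Without *Pgam* ASO replicate 1 the difference was -0.44.

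*S1pr1* encodes the receptor with which T cells follow sphingosine 1-phosphate out of lymph nodes, and it is a textbook target of KLF2 (ENSMUSG00000045092, minus strand, chr3:115710433-115715072). It stood at 143, 210 and 109 CPM in scrambled ASO replicates 1, 2 and 3 and at 74.3, 84.8 and 99.5 CPM in *Pgam* ASO replicates 1, 2 and 3. Replicate 3 of each label lay nearest to the other group, and the groups did not overlap. Means were 154 ± 51.5 and 86.2 ± 12.6 CPM (SD, n = 3), and *S1pr1* fell by 0.84 on the log2 scale (SE 0.23, 95% interval -1.39 to -0.29, edgeR adjusted p = 0.0483). This value lies just inside the threshold. It was not called without scrambled ASO replicate 1 (edgeR adjusted p = 0.101), *Pgam* ASO replicate 1 (0.147) or *Pgam* ASO replicate 2 (0.141), or with library size alone as the scale (0.0593) or replicate number as a block (0.0659), and ran from 0.000336 to 0.147 over the 15 alternatives. Without scrambled ASO replicate 2 the log2 fold change was -0.55, a fall that still passed.

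*Bach2* encodes a repressor that restrains effector genes and is needed for normal Treg development (ENSMUSG00000040270, plus strand, chr4:32238804-32586108). Its values were 185, 216 and 147 CPM in scrambled ASO replicates 1, 2 and 3 and 91.1, 86.6 and 95.2 CPM in *Pgam* ASO replicates 1, 2 and 3. The 3 libraries labelled *Pgam* ASO lay close together, all far below the lowest library labelled scrambled ASO. *Bach2* fell by 1.01 on the log2 scale (SE 0.13, 95% interval -1.29 to -0.72, edgeR adjusted p = 0.00173), and it was called in 15 of 15 alternatives. Of its 31-base stretches, 6.37% occur in other genes, most of them in the antisense gene *Bach2os*.

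*Foxp1* encodes a forkhead repressor that keeps naïve T cells quiescent (ENSMUSG00000030067, minus strand, chr6:98925338-99522721). It stood at 202, 247 and 170 CPM in scrambled ASO replicates 1, 2 and 3 and at 73.0, 90.0 and 101 CPM in *Pgam* ASO replicates 1, 2 and 3. The lowest library labelled scrambled ASO was well above the highest one labelled *Pgam* ASO. *Foxp1* fell by 1.23 on the log2 scale (SE 0.15, 95% interval -1.57 to -0.89, edgeR adjusted p = 0.00186). Like *Bach2*, it was called in 15 of 15 alternatives, and these were the only members for which this held.

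*Satb1* encodes a chromatin organizer that T cells need for thymic development (ENSMUSG00000023927, minus strand, chr17:51736187-51833290). Its values were 153, 209 and 114 CPM in scrambled ASO replicates 1, 2 and 3 and 185, 155 and 145 CPM in *Pgam* ASO replicates 1, 2 and 3. All 3 libraries labelled *Pgam* ASO lay within the range of those labelled scrambled ASO. The log2 fold change was 0.03 ± 0.20 (SE), with a 95% interval from -0.44 to 0.50 and an edgeR adjusted p of 0.942. Its sign changed with the scale and with the library left out, from -0.16 without scrambled ASO replicate 3 to 0.28 without scrambled ASO replicate 2. A fall as large as that of *Foxp1* lies outside the interval of *Satb1*, although the difference between these genes was not tested.

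*Id3* encodes an inhibitor that binds E proteins and keeps them from DNA (ENSMUSG00000007872, plus strand, chr4:136143497-136145755). It was the least counted member, with 233, 303 and 146 counts in scrambled ASO replicates 1, 2 and 3 and 122, 97 and 159 counts in *Pgam* ASO replicates 1, 2 and 3. In CPM these were 13.1, 16.4 and 9.05 against 7.58, 6.22 and 9.41. *Pgam* ASO replicate 3 lay above scrambled ASO replicate 3, so the ranges met. Its log2 fold change was -0.73 ± 0.23 (SE, 95% interval -1.25 to -0.21, edgeR adjusted p = 0.0561), which missed the threshold. *Id3* was called without scrambled ASO replicate 3 (edgeR adjusted p = 0.0141), without *Pgam* ASO replicate 3 (0.0341), with every gene of at least 1 count (0.00236) and with DESeq2 (0.0246), in a range from 0.00236 to 0.207.

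The count of members called depended on which libraries were present. It was 2 without scrambled ASO replicate 1, *Pgam* ASO replicate 1 or *Pgam* ASO replicate 2, 4 without scrambled ASO replicate 2, 6 without scrambled ASO replicate 3, and 7 without *Pgam* ASO replicate 3. With all 6 libraries, limma-voom on the same 14936 genes called 6, and DESeq2, which was run on 28512 genes and so differed in its filter as well, called 7. Over all tested genes the number called with all 6 libraries was 2565 with edgeR, 2522 with limma-voom and 3078 with DESeq2. It was 620 of 15413 without scrambled ASO replicate 1 and 871 of 15551 without *Pgam* ASO replicate 1. Without *Pgam* ASO replicate 2 it was 391 of 15573, and without scrambled ASO replicate 2 it was 1256 of 15273. The most calls were 3484 of 15508 without scrambled ASO replicate 3 and 3319 of 15464 without *Pgam* ASO replicate 3.

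**Figure D2:**
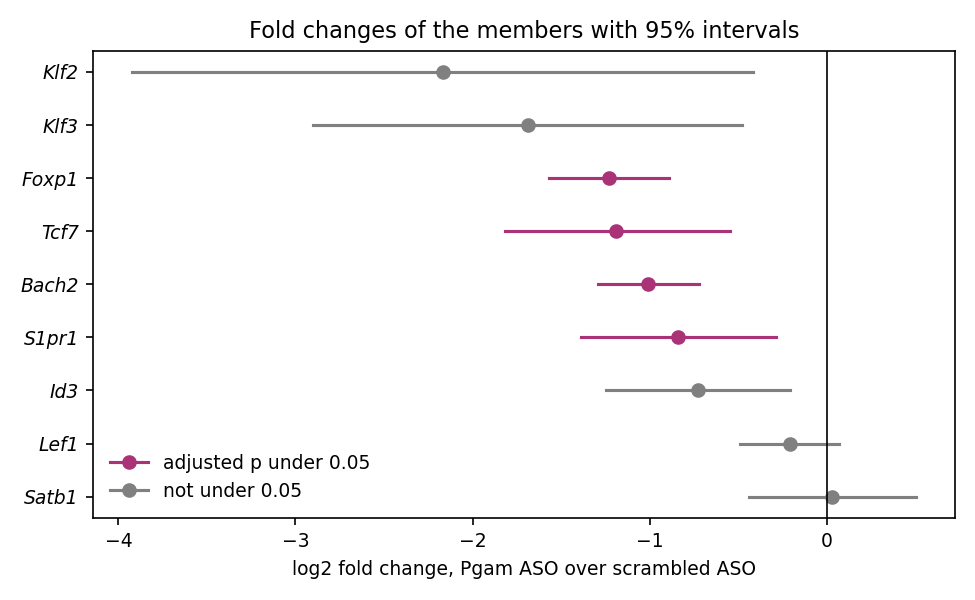
Log2 fold change of each member in the libraries labelled *Pgam* ASO over those labelled scrambled ASO (horizontal axis), with 95% intervals from edgeR's fit of 3 against 3 libraries. The 4 called members lie between -1.23 and -0.84, *Klf2* and *Klf3* lie further left with the widest intervals, and *Satb1* lies at 0.03.

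Because *Tcf7*, *Bach2* and *Foxp1* fell together, and *Klf2* lay lower without overlap, bases before a start site of each are shown. RefSeq promoters on GRCm38.p6 were found for 8 of 9 members, in 18 windows of 250 bases before a start site, and *S1pr1* had no entry. Each sequence below is the longest unbroken stretch of 1 window that lies in no GENCODE M21 exon. Of the 2 windows of *Tcf7* and the 3 of *Foxp1*, the 1 with a motif match was chosen, and the others held none of the motifs searched. The stretches are chr11:52282596-52282711 (minus strand, *Tcf7*, inside the annotated gene between exons), chr8:72318812-72319032 (plus strand, *Klf2*, ending 1 base before its annotated start), chr4:32417185-32417434 (plus strand, *Bach2*, inside the annotated gene) and chr6:99266533-99266765 (minus strand, *Foxp1*, inside the annotated gene). Capitals mark a KLF motif in *Tcf7* and a TCF and LEF motif in *Foxp1*.
Tcf7: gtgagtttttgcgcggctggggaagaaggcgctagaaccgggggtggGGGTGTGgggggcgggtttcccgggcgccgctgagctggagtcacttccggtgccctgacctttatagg
Klf2: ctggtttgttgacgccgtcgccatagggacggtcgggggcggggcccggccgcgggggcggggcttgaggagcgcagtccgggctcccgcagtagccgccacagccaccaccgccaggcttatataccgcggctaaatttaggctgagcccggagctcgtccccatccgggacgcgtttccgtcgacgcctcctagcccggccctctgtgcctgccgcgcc
Bach2: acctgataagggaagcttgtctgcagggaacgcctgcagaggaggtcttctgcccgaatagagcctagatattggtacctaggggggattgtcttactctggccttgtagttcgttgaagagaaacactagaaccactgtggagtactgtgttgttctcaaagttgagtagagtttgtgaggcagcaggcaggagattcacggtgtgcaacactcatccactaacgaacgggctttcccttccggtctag
Foxp1: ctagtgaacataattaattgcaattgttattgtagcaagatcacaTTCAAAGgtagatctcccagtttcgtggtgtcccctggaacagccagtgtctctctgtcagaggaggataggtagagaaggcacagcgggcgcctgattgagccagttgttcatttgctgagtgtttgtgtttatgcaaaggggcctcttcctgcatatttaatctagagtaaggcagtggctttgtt
The letters searched, on both strands, were GTAAACA for FOXO factors, CACACCC for KLF factors, CTTTGAA for TCF and LEF factors and TGAGTCA for BACH factors. The FOXO letters were in 0 of the 18 windows of the members, against 3.17% of 32851 RefSeq windows of the same length. The KLF letters were in 3 windows, of *Tcf7*, *Satb1* and *Id3*, against 6.93%, the TCF and LEF letters in 1 window, of *Foxp1*, against 4.46%, and the BACH letters in 0 windows, against 4.46%. A match says only that the letters are present, and a missing match only that they are not in these 250 bases.

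Levels were compared between members per kilobase of exons (CPM per kilobase, union of all annotated exons). *Tcf7* was the most abundant in both groups, at 157 ± 56.9 and 69.1 ± 11.8 CPM per kilobase (scrambled ASO label, then *Pgam* ASO label, mean ± SD of 3). In the libraries labelled scrambled ASO, *Klf2* (52.0 ± 21.4) and *S1pr1* (50.6 ± 16.9) came next and overlapped each other. They were followed by *Bach2* (18.4 ± 3.49), *Lef1* (17.3 ± 3.19) and *Foxp1* (15.0 ± 2.79), where each overlapped the next. *Satb1* (8.34 ± 2.51), *Id3* (7.17 ± 2.05) and *Klf3* (3.58 ± 1.62) came last, again with overlap between neighbours. The breaks in this order, where 3 libraries of a gene lay above all 3 of the next, were those after *Tcf7*, *S1pr1* and *Foxp1*.

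In the libraries labelled *Pgam* ASO the order was *Tcf7*, *S1pr1* (28.3 ± 4.14 CPM per kilobase), *Lef1* (14.9 ± 1.13), *Klf2* (11.5 ± 10.4), *Bach2* (9.15 ± 0.435), *Satb1* (8.50 ± 1.08), *Foxp1* (6.40 ± 1.03), *Id3* (4.32 ± 0.892) and *Klf3* (1.11 ± 0.590). Neighbours from *Lef1* to *Satb1* overlapped, and all others were apart. *Klf2* had rank 4 here only through *Pgam* ASO replicate 3, since its values were 3.26, 8.02 and 23.2 CPM per kilobase in *Pgam* ASO replicates 1, 2 and 3. Without replicate 3 its mean was 5.64, below those of *Bach2* (8.93), *Satb1* (8.93) and *Foxp1* (5.92). These ranks depend on the length used. With the mean length of coding transcripts, *Foxp1* took rank 2 in the libraries labelled scrambled ASO (96.6 CPM per kilobase), while *Tcf7* kept rank 1 with each of 3 length definitions in both groups.

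**Figure D3:**
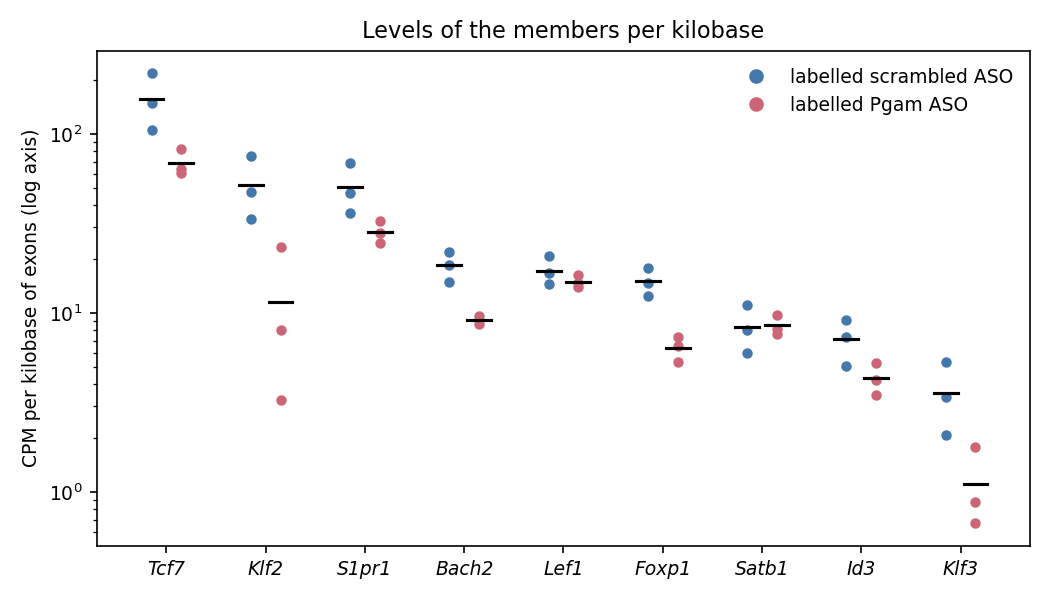
CPM per kilobase of exons (vertical log axis) of each member in the 6 libraries, ordered by the mean of the libraries labelled scrambled ASO, with a bar at each mean. *Tcf7* lies on top in both groups, and *Klf2* shows the widest range, from 3.26 to 23.2 in the libraries labelled *Pgam* ASO.

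The members shared their spread within each group. Scrambled ASO replicate 2 was the highest and replicate 3 the lowest of its group for 9 of 9 members, against 27.2% of all tested genes and 62.3% of the genes called lower. *Pgam* ASO replicate 3 was the highest of its group for 8 of 9 members, all but *Satb1*, against 37.9% of all tested genes and 68.7% of the genes called lower. This pattern was noticed in the values, and members measured in the same libraries are not independent of each other. The median member lay 0.44 above its group mean (log2 CPM) in scrambled ASO replicate 2 and -0.44 from it in replicate 3, while the median of all tested genes lay at -0.0023 and 0.0058. In *Pgam* ASO replicates 1, 2 and 3 the median member lay at -0.17, -0.07 and 0.22. The highest library of a group exceeded its lowest by a median of 1.83-fold over the members in the libraries labelled scrambled ASO, against 1.26-fold over all tested genes. For those labelled *Pgam* ASO it was 1.36-fold against 1.25-fold. The TMM scaling factors ran from 0.9721 to 1.029.

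**Figure D4:**
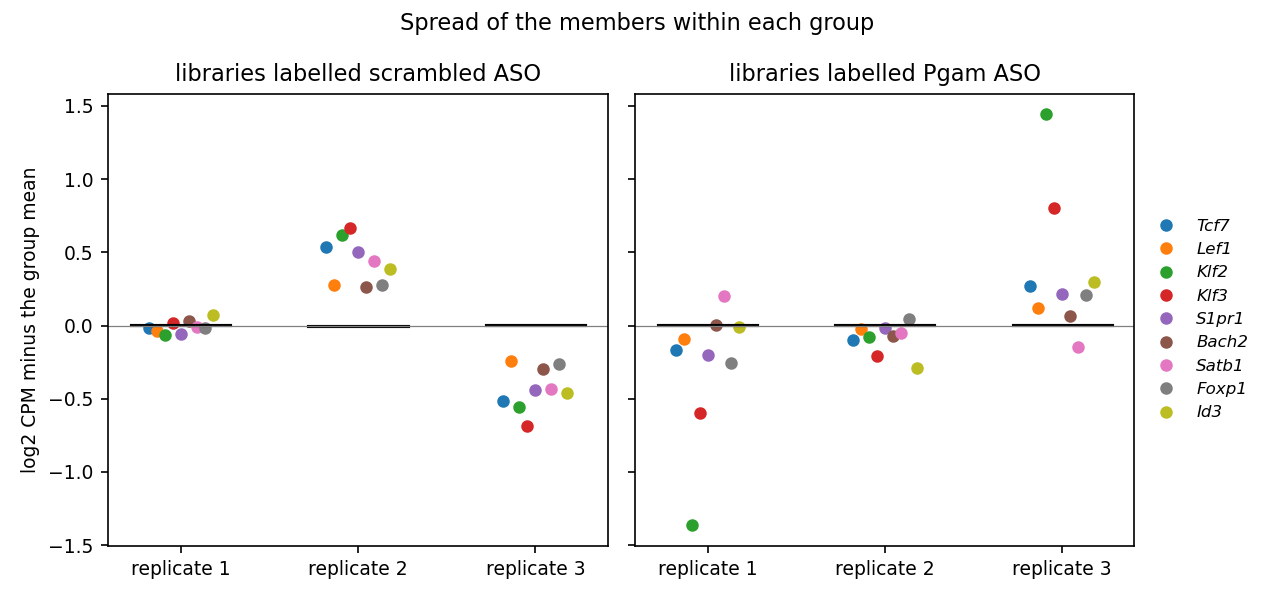
Log2 CPM of each member minus the mean of its group (vertical axis) in each library, with a black bar at the median of all tested genes. In scrambled ASO replicate 2 all 9 members lie above 0 and in replicate 3 all 9 lie below, while *Klf2* spans the widest range in the libraries labelled *Pgam* ASO.

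For each member the tested gene with the most similar log2 CPM over the 6 libraries was found among 9498 genes with a mean log2 CPM of at least 3. These were *Sh3kbp1* for *Tcf7* (Pearson r = 0.9992), *Otulinl* for *Lef1* (0.9939), *Vsir* for *Klf2* (0.9988), *2310001H17Rik* for *Klf3* (0.9991) and *Bin1* for *S1pr1* (0.9998). The genes most like the other members were *Arid5b* for *Bach2* (r = 0.9989), *Zfp777* for *Satb1* (0.9851), *Resf1* for *Foxp1* (0.9987) and *Nckap5l* for *Id3* (0.9947). Each r is over 6 points that share library and depth, and the highest of 9498 values is high by construction, so these are descriptions only. Likeness in shape was not likeness in size, since *Vsir*, at 135, 151 and 120 against 56.8, 73.0 and 104 CPM, fell by 0.79 (edgeR adjusted p = 0.0367) where *Klf2* had a value of -2.17. The call of *Vsir* was lost without scrambled ASO replicate 1 (edgeR adjusted p = 0.096), scrambled ASO replicate 2 (0.164), *Pgam* ASO replicate 1 (0.0535) or *Pgam* ASO replicate 2 (0.124). *Resf1* matched *Foxp1* in size as well, since it fell by 1.24 (edgeR adjusted p = 0.00366).

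FOXO factors and their known targets, other than the members, were examined as a list of 20 genes, of which 19 were tested. Of these, 13 were called lower and 0 higher, where 9.15% of all tested genes were called lower and 8.03% higher. The same shares stand beside the count of each list below. The median log2 fold change of the FOXO list was -1.09. DESeq2 and limma-voom each called 14 lower and 0 higher, and 0 genes were higher at an unadjusted p under 0.05 with any of the 3 tools. *Foxo1* itself stood at 167, 220 and 135 CPM in scrambled ASO replicates 1, 2 and 3 and at 93.4, 94.3 and 105 CPM in *Pgam* ASO replicates 1, 2 and 3, and fell by 0.84 on the log2 scale (edgeR adjusted p = 0.0114). The factor thus showed the same order of libraries within the scrambled ASO label as the members did. *Bcl2l11*, which encodes the death factor BIM (log2 fold change -2.06, edgeR adjusted p = 0.0267), and *Bcl6*, a transcriptional repressor that follicular helper T cells need (-1.97, 0.022), were among the largest falls of this list. *Bcl2l11* lost its call without scrambled ASO replicate 1 or *Pgam* ASO replicate 1 or 2, and *Bcl6* without these or scrambled ASO replicate 2, with edgeR adjusted p-values from 0.0527 to 0.11. A block for replicate number also ended the calls of *Bcl2l11* (edgeR adjusted p = 0.0628) and *Bcl6* (0.0644), and testing every gene of at least 1 count that of *Bcl2l11* (0.11). The count of called genes in this list was 4 without scrambled ASO replicate 1, 7 without scrambled ASO replicate 2, 6 without *Pgam* ASO replicate 1 and 2 without *Pgam* ASO replicate 2. In the same fits 620, 1256, 871 and 391 of all tested genes were called, which holds beside the lists below too. *Foxo1* lost its call without *Pgam* ASO replicate 2 (edgeR adjusted p = 0.0681).

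*Ccr7* and *Il7r* are classical targets of FOXO1 in naïve T cells. *Ccr7*, the chemokine receptor for entry into lymph nodes, stood at 802, 819 and 888 CPM in scrambled ASO replicates 1, 2 and 3 and at 202, 212 and 273 CPM in *Pgam* ASO replicates 1, 2 and 3. Unlike the members, *Ccr7* was nearly level among the libraries labelled scrambled ASO, with replicate 3 the highest, and it fell by 1.87 (SE 0.12, edgeR adjusted p = 9.27e-05). *Il7r*, the receptor for the survival factor IL-7, fell by 1.09 (SE 0.19, edgeR adjusted p = 0.0115), a call lost without *Pgam* ASO replicate 2 (0.0592).

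Other naïve T cell markers, with *Ccr7* and *Il7r* among them, numbered 11, all tested, of which 6 were called lower and 0 higher, with a median log2 fold change of -0.72. DESeq2 and limma-voom called 7 lower and 0 higher, and 0 were higher at an unadjusted p under 0.05. *Nsg2* fell by 1.67 (edgeR adjusted p = 0.0243), a call lost without scrambled ASO replicate 1 (0.0728), scrambled ASO replicate 2 (0.0742) or *Pgam* ASO replicate 2 (0.0877), and with every gene of at least 1 count (0.107). Without scrambled ASO replicate 1 the count was 3 and without *Pgam* ASO replicate 2 it was 2. Among 16 homing and egress genes other than *S1pr1*, 6 were called lower and 0 higher, with a median of -0.61, where 2 were higher at an unadjusted p under 0.05 and DESeq2 and limma-voom called 8 and 9 lower and 0 higher. *Itga4*, an integrin chain for entry into tissues, fell by 1.26 (edgeR adjusted p = 0.0138), a call lost without scrambled ASO replicate 1 (0.0503), scrambled ASO replicate 2 (0.0537) or *Pgam* ASO replicate 2 (0.0672). *Cd69*, whose protein pulls S1PR1 off the cell surface, fell by 0.72 (edgeR adjusted p = 0.00639), in the same direction as *S1pr1*. The count in the homing list was 2 without scrambled ASO replicate 1 or *Pgam* ASO replicate 2, 3 without *Pgam* ASO replicate 1 and 10 without *Pgam* ASO replicate 3.

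The list of quiescence and antiproliferative genes beside the members held 27 genes, of which 26 were tested, 12 were called lower and 0 higher, with a median log2 fold change of -0.53. In this list 1 gene was higher at an unadjusted p under 0.05, and DESeq2 and limma-voom called 15 and 12 lower and 0 higher. *Mxd4*, an antagonist of MYC, stood at 103, 161 and 89.6 CPM in scrambled ASO replicates 1, 2 and 3 and at 26.8, 32.4 and 51.9 CPM in *Pgam* ASO replicates 1, 2 and 3, which is the order of libraries seen for *Tcf7* within both groups. It fell by 1.67 on the log2 scale (edgeR adjusted p = 0.0213), *Btg2*, an antiproliferative gene, by 1.57 (0.0349), and *Dgka*, which dampens T cell receptor signalling, fell by 1.31 (0.00835). The calls of *Mxd4* and *Btg2* were each lost without scrambled ASO replicate 1 or 2 or *Pgam* ASO replicate 1 or 2, with edgeR adjusted p-values from 0.0552 to 0.12. With every gene of at least 1 count edgeR's adjusted p was 0.0856 for *Mxd4* and 0.133 for *Btg2*, and with replicate number as a block it was 0.0583 for *Btg2*. The count of the list was 6 without scrambled ASO replicate 1, 7 without *Pgam* ASO replicate 1 and 5 without *Pgam* ASO replicate 2.

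Paralogs and partners of the members moved in both directions. Of 42 listed genes 33 were tested, 9 were called lower and 4 higher, and the median log2 fold change was -0.29. *Foxp3*, a relative of *Foxp1* and the lineage factor of Tregs, stood at 282, 371 and 222 CPM in scrambled ASO replicates 1, 2 and 3 and at 89.7, 109 and 131 CPM in *Pgam* ASO replicates 1, 2 and 3, and fell by 1.41 (edgeR adjusted p = 0.00567). Its libraries ran in the same order as those of *Foxp1* within both groups. *Klf4*, a relative of *Klf2*, fell by 1.30 (edgeR adjusted p = 0.00405), and *Tle2*, a Groucho partner of TCF-1, by 1.24 (0.0286). While *Id3* was lower in mean, its relatives *Id1* (log2 fold change 0.72, edgeR adjusted p = 0.0427) and *Id2* (0.39, 0.0349) rose, as did *Mafg*, which encodes a partner of BACH2 (0.40, 0.0239). *Id2* stood at 88.6, 75.8 and 96.0 CPM in scrambled ASO replicates 1, 2 and 3 and at 123, 115 and 103 CPM in *Pgam* ASO replicates 1, 2 and 3, the reverse of the members within the scrambled ASO label. *Id1*, *Id2* and *Mafg* each lost the call without scrambled ASO replicate 1 or 2 or *Pgam* ASO replicate 1 or 2, and *Tle2* likewise, with edgeR adjusted p-values from 0.0566 to 0.176. The calls of *Id1* (edgeR adjusted p = 0.092), *Id2* (0.0746) and *Mafg* (0.0634) were also lost with replicate number as a block. The count of the list was 2 without scrambled ASO replicate 1 or *Pgam* ASO replicate 2, 5 without scrambled ASO replicate 2 and 4 without *Pgam* ASO replicate 1.

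Activation and effector genes, which naïve T cells hold low, were listed for comparison with the members. All 19 were tested, 5 were called higher and 1, *Cd69*, lower, and the median log2 fold change was 0.06. *Gata3*, the lineage factor of Th2 cells, rose by 0.89 on the log2 scale (edgeR adjusted p = 0.0321), *Batf*, an activation factor, by 0.75 (0.0108) and *Il2ra*, which encodes CD25, by 0.52 (0.0185). *Il2ra* stood at 1946, 1627 and 2216 CPM in scrambled ASO replicates 1, 2 and 3 and at 2908, 2900 and 2495 CPM in *Pgam* ASO replicates 1, 2 and 3. Scrambled ASO replicate 2 was thus the lowest and replicate 3 the highest of their group, where the members had the opposite order. Without scrambled ASO replicate 1 or *Pgam* ASO replicate 1 the count of this list was 2, and without *Pgam* ASO replicate 2 it was 1. *Gata3* and *Il2ra* lost their calls in each of these fits, and *Batf* without *Pgam* ASO replicate 2 (edgeR adjusted p = 0.0569), in a range from 0.0569 to 0.102 for the 3 genes.

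**Figure D5:**
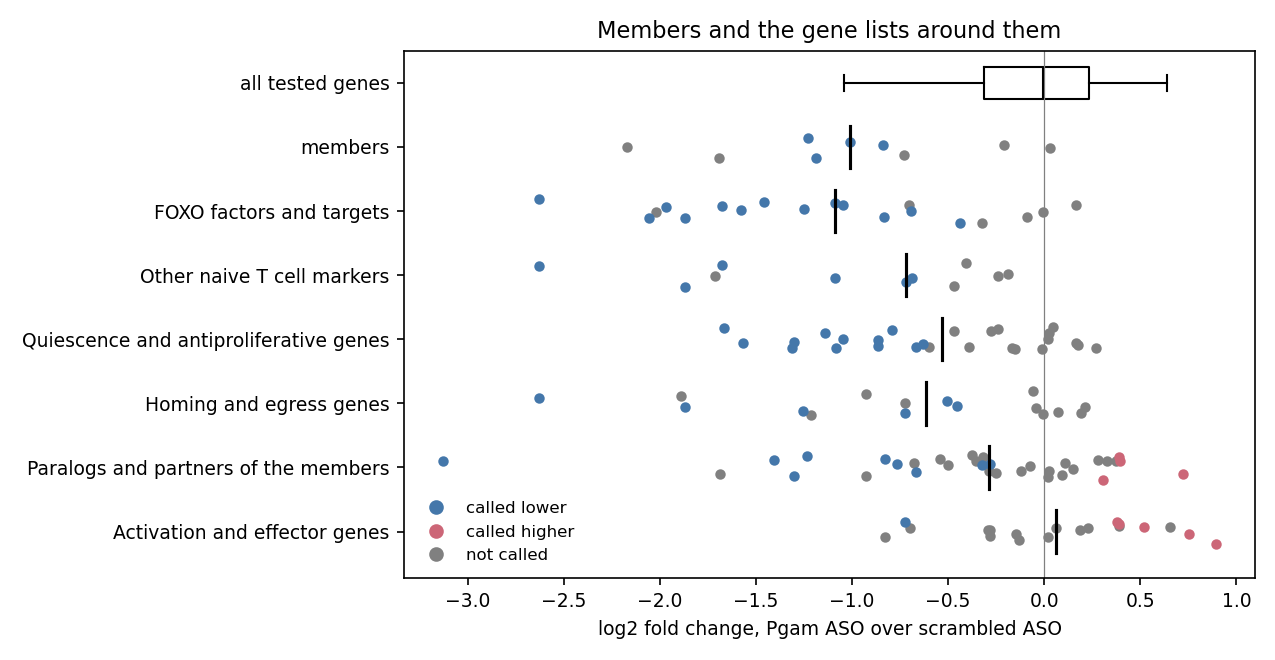
Log2 fold change in the libraries labelled *Pgam* ASO over those labelled scrambled ASO (horizontal axis) of the members and of the tested genes of 6 lists, coloured by call, with a black bar at each median. The box is the middle of all tested genes, with whiskers at the outer 5% on each side, and the medians run from -1.09 for the FOXO list to 0.06 for activation and effector genes.

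Markers of CD4 cells were abundant in every library. Their 10 genes, led by *Thy1*, summed to 4570, 4662 and 4460 CPM in scrambled ASO replicates 1, 2 and 3 and to 4096, 4164 and 4217 CPM in *Pgam* ASO replicates 1, 2 and 3, and 3 were called lower and 0 higher. Of the 8 B cell markers, *Ighm* was the most abundant, at 320, 447 and 216 CPM in scrambled ASO replicates 1, 2 and 3 and 75.6, 111 and 142 CPM in *Pgam* ASO replicates 1, 2 and 3. It followed the order of *Tcf7* in both groups and fell by 1.58 on the log2 scale (edgeR adjusted p = 0.0282), a call lost without scrambled ASO replicates 1 or 2 or *Pgam* ASO replicates 1 or 2 (edgeR adjusted p from 0.0639 to 0.102). It was also lost with a block for replicate number (0.0539) and with every gene of at least 1 count (0.106). The B cell list summed to 329, 459 and 223 CPM and to 87.2, 121 and 150 CPM, almost all of it *Ighm*. *Cd79a*, a part of the B cell receptor, stood at 4.11, 5.35 and 2.42 CPM in scrambled ASO replicates 1, 2 and 3 and at 1.55, 1.54 and 2.66 CPM in *Pgam* ASO replicates 1, 2 and 3. Within each label its highest library was that of most members, the groups overlapped, and its log2 fold change of -1.04 did not pass (edgeR adjusted p = 0.0661). *Cd79b* reached at most 2.97 CPM, in scrambled ASO replicate 2, and was not called either (log2 fold change -0.24, edgeR adjusted p = 0.644). *Pax5* reached at most 2.55 CPM, in *Pgam* ASO replicate 1, while *Ms4a1* reached at most 1.29 CPM, *Blk* 1.06 CPM and *Cd22* 0.807 CPM.

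*Pecam1*, the most abundant of 5 genes of stroma and endothelium, moved with the members too, at 88.7, 146 and 63.8 CPM against 29.4, 35.5 and 48.8 CPM (log2 fold change -1.39, edgeR adjusted p = 0.0412). *Col1a1* of the same list stood at 0.788, 1.51 and 0.929 CPM in scrambled ASO replicates 1, 2 and 3 and at 0.248, 0.385 and 0.828 CPM in *Pgam* ASO replicates 1, 2 and 3 (log2 fold change -1.13, edgeR adjusted p = 0.15), with overlap. *Pdgfrb* and *Col1a2* were too low to be tested, with at most 0.972 CPM and 0.805 CPM, both in a library labelled scrambled ASO, and *Cdh5* had a count in only 1 library. The stroma list summed to 89.9, 149 and 66.1 CPM and to 29.8, 36.4 and 50.3 CPM. The call of *Pecam1* was lost without scrambled ASO replicates 1 or 2 or *Pgam* ASO replicates 1 or 2 (edgeR adjusted p from 0.0566 to 0.132). So it was with a block for replicate number (0.0728) and with every gene of at least 1 count (0.154).

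The remaining marker lists were low or did not follow the members. CD8 markers, led by *Cd8b1*, summed to between 10.8 and 15.7 CPM, with 1 of 2 genes called higher, and myeloid markers, led by *Cst3*, to between 70.2 and 109 CPM, with 0 of 4 tested genes called. Dendritic cell markers, led by *Flt3*, summed to at most 1.28 CPM with *Siglech* and *Clec9a* at 0 in all 6 libraries, and NK cell markers, led by *Ncr1*, to at most 0.108 CPM with *Klrb1c*, *Klra4* and *Klra8* at 0. Mast cell and basophil markers, led by *Cpa3*, summed to 1.07, 1.89 and 1.36 CPM in scrambled ASO replicates 1, 2 and 3. In *Pgam* ASO replicates 1, 2 and 3 they summed to 4.10, 3.98 and 2.96 CPM, higher without overlap. *Cpa3* was not called (log2 fold change 1.09, edgeR adjusted p = 0.0526). Its adjusted p ran from 0.0399 with every gene of at least 1 count to 0.157 without scrambled ASO replicate 1. Erythroid markers, led by *Alas2*, summed to between 1.55 and 2.87 CPM with *Hba-a2* at 0. The share of counts from mitochondrially encoded genes was 1.95%, 2.12% and 1.93% in scrambled ASO replicates 1, 2 and 3 and 1.24%, 1.44% and 1.32% in *Pgam* ASO replicates 1, 2 and 3, so it moved with the label as the members did. Whether *Ighm*, *Pecam1* or the mitochondrial share has a part in the members' difference was not tested.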

How the data were processed

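RNA-seq of 6 CD4 cell cultures was analysed, of which 3 carried the label Scramble and 3 the label ASO, named scrambled ASO and *Pgam* ASO here. Each value is an estimated count of an Ensembl gene from a table that the authors deposited, made with Kallisto against GRCm38 per the submitters' processing notes, in whole numbers and without normalization, so nothing was rounded. The Kallisto version, the annotation and the strandedness are not given in the sources used here. Reads that match several genes are divided by the model, and without strand, a gene and its antisense partner cannot be told apart. Of 56748 gene IDs, 52073 matched a symbol in GENCODE M21, which also gave coordinates, exon lengths and the 31-base stretches shared with other genes, and 28236 were 0 in every library. *Tle5* was matched through its older symbol *Aes*. Within a label, the chi-square per degree of freedom between libraries ran from 6.75 to 23.6, so no pair was a duplicate.

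The test was run with edgeR 4.0.16 under R 4.3.3: filterByExpr (14936 genes kept), TMM scaling, robust estimateDisp and glmQLFit in its legacy setting, and glmQLFTest, two-sided, with Benjamini-Hochberg adjustment over all tested genes and a threshold of 0.05. SE is the log2 fold change divided by the square root of F. Alternatives were DESeq2 1.42.0 (on every gene with a count), limma-voom (limma 3.58.1), RLE size factors, library size alone, ribosomal protein and mitochondrially encoded genes left out, a filter of at least 1 count in total, a filter of at least 10 counts per library, a block for replicate number, leaving out each library and an adjusted p under 0.01, and for levels 2 other gene lengths. Bias-adjusted deviances in edgeR and the leave-outs of the paralog ratios were added after seeing the data. Ratios were tested by exact permutation over 20 arrangements. Promoter motifs were searched in 250 bases upstream of RefSeq starts.

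The members and lists were chosen with earlier results of these data known. Genes named are the 9 members, *Pgam1*, *Pgam2*, *Foxo1*, *Ccr7* and *Il7r*, up to 3 largest rises and 3 largest falls of each of 6 lists among called genes with a mean log2 CPM of at least 1, the gene most like each member, and the most abundant gene of each marker list. Further B cell and stroma markers and genes sharing sequence with a member were named after their values were seen.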

Additional observations from a re-analysis of the deposited data

How the results depend on the processing

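Of 9 members, *Lef1*, *Bach2* and *Foxp1* kept their direction and their side of the threshold under all 15 alternatives to the fit. RLE size factors, limma-voom, bias-adjusted deviances (chosen after seeing the data) and leaving out ribosomal protein and mitochondrially encoded genes moved no count of calls by over 1.5 times. DESeq2, run on 28512 genes against 14936, so that tool and filter both differed, called 7 members against 4. With every gene of at least 1 count, the FOXO list had 8 calls against 13.

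At an adjusted p under 0.01, 453 of all tested genes and 2 members were called, with 2 in the FOXO list, 2 among other naïve markers, 5 among quiescence genes, 2 among homing genes, 2 among paralogs and partners and 1 among activation genes. This follows from the stricter threshold.

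With 1 library left out, calls ran from 391 to 3484 over all tested genes, from 2 to 7 for the members, from 2 to 16 for the FOXO list, from 2 to 9 for other naïve markers, from 5 to 15 for quiescence genes, from 2 to 10 for homing genes, from 2 to 15 for paralogs and partners and from 1 to 7 for activation genes. Leaving out scrambled ASO replicate 3 or *Pgam* ASO replicate 3 gave more calls over all tested genes than all 6 libraries did, leaving out any other gave fewer, and the cause was not tested.

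*Satb1* changed sign with library size alone (log2 fold change -0.01) and without scrambled ASO replicate 1 (-0.0047), scrambled ASO replicate 3 (-0.16) or *Pgam* ASO replicate 1 (-0.08), in a range from -0.16 to 0.28 with 1 library left out. *Zfp777* changed sign with library size alone (-0.0043) and without scrambled ASO replicate 3 (-0.05), in a range from -0.05 to 0.12. None of these values passed the threshold.

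Libraries with the same replicate number deviated from their group means with Pearson r of 0.0534, -0.034 and -0.237 across genes. The highest r, 0.28, was between scrambled ASO replicate 2 and *Pgam* ASO replicate 3. Deviations from means of 3 libraries cannot decide whether equal numbers share an animal, and no source used here says so. With replicate number as a block, 1235 of all tested genes, 2 members, 8 genes of the FOXO list and 6 paralogs and partners were called, and the counts of the other 4 lists moved by at most 1.5 times. With 3 libraries a group, a spread as wide as that of *Klf2* (7.12-fold within the *Pgam* ASO label) leaves wide intervals. Every member had at least 97 counts in every library.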
